A study of Mus musculus with 18 samples.

Results

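The genes described here encode the glutathione transferases, the glutathione peroxidases and the peroxiredoxins of mouse liver. They were chosen by name, from the probe sets of an Affymetrix mouse expression array that carry a single gene symbol of these families, with the brightest probe set kept for each gene. This gave 34 of the 18193 genes with such a probe set, namely 23 transferases (20 soluble or mitochondrial and 3 microsomal), 8 peroxidases and 3 peroxiredoxins. Of these, 31 lay above the filter on dim probe sets and were tested among 12885 genes. They are 20 transferases, all 8 peroxidases and all 3 peroxiredoxins. Gsto2, Gstt4 and Mgst2 were too dim to test. Another 6 probe sets list a family symbol together with other symbols and were left out, 5 of them listing Prdx1 and 1 listing Gsta2. Prdx1, Prdx5 and Prdx6 were therefore not analysed here.

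The livers came from male mice, whose strain is spelled C56BL/6J in the sample labels and C57BL/6J in the growth protocol, put on a diet at 5 weeks of age and fed it for 20 weeks. The control group ate the purified AIN93G diet alone. The other groups ate the same diet with 0.05% or 1% quercetin, a plant flavonol. Each diet had 12 mice kept 3 to a cage, and 6 mice per diet have an array of their own. The labels do not say which mice shared a cage, so the p-values measure the spread between mice as if cages did not matter.

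Glutathione transferases join glutathione to reactive, fat-soluble compounds so that the liver can excrete them. The alpha, mu, pi and theta classes are soluble, the kappa class sits in mitochondria and peroxisomes, and the microsomal enzymes sit in membranes. Glutathione peroxidases reduce hydrogen peroxide and lipid peroxides with glutathione, several of them through a selenocysteine. Peroxiredoxins reduce peroxides through a reactive cysteine that most of them renew with thioredoxin. Many transferase genes carry antioxidant response elements, which the transcription factor Nrf2 (Nfe2l2) binds, and alpha-class genes are among those also reached by the aryl hydrocarbon receptor through xenobiotic response elements.

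The 7 mu-class genes, Gstm5, Gstm7, Gstm6, Gstm3, Gstm2, Gstm1 and Gstm4 in map order, lie in a cluster on mouse chromosome 3 in RefSeq, and Gsta2 and Gsta4 share chromosome 9. RefSeq promoter windows (GRCm38.p6, 250 bases before to 50 bases after a start site) were found for 32 of the 34 genes, with none matched for Gsta4 and Gstt2. The core of the antioxidant response element, TGACNNNGC on either strand, occurred in the windows of 4 of these 32 genes (12.5%), Gsta3, Gstm5, Gstm7 and Mgst1, and in 14.0% of all 27025 genes with a window. The core of the xenobiotic response element, GCGTG on either strand, occurred in 11 of the 32 genes (34.4%) and in 35.2% of all genes. These are letter matches in short windows and say nothing about binding. The 4 windows below belong to genes whose values are described further on, an alpha-class pair that differed widely in spread between mice (Gsta2 and Gsta3) and a mu-class pair with lower means on the 1% diet (Gstm2 and Gstm7). Each reads 5′ to 3′ on the gene's strand, with matches to either core in capitals.
Gsta2 (chr9:78347096-78347395, minus strand): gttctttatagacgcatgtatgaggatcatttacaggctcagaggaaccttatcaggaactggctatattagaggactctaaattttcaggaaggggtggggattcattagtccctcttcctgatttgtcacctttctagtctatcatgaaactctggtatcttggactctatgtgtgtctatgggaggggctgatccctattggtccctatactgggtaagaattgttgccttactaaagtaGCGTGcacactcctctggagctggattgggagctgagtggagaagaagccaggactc
Gsta3 (chr1:21240335-21240634, plus strand): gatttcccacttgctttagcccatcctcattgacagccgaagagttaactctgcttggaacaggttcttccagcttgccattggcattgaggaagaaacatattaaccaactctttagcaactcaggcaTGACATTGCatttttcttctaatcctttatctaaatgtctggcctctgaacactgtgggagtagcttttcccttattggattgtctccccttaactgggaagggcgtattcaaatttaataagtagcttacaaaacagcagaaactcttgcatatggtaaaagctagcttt
Gstm2 (chr3:107986371-107986670, minus strand): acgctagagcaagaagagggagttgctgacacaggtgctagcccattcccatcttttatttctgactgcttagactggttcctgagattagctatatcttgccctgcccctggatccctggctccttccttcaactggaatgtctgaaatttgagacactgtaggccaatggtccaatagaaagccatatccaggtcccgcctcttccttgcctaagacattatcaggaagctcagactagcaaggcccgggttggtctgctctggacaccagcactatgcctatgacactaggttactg
Gstm7 (chr3:107931565-107931864, minus strand): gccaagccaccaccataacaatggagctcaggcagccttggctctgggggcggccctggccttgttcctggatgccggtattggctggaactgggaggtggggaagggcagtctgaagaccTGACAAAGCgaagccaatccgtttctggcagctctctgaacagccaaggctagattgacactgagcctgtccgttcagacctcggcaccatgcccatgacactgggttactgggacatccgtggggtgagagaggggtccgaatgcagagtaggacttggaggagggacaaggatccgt
The Gsta2 window held 1 xenobiotic core, starting 7 bases upstream of the start site. In the Gsta3 and Gstm7 windows shown, an antioxidant core started 121 and 129 bases upstream of the start site of that window. Gstm7 has a second window (chr3:107931768-107932067), from another start site, with no match to either core. The antioxidant core shown for Gstm7 lies downstream of that other start site. The Gstm2 window held neither.

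Values are deposited array intensities, taken here as log2(intensity + 16), so that a difference of 1 is a doubling except in dim probe sets, where it understates the change. The scaling of the deposited intensities between arrays is unknown here. The median intensity ran from 14.2 to 22.0 over the 18 arrays, and the median over tested genes spanned 0.53 on the log2 scale, so shared shifts of whole arrays are part of the spread between mice. The 9 hepatocyte markers on the array summed to 95399 to 111165 in control livers, 94806 to 106217 at 0.05% and 90703 to 98394 at 1%, and the 3 adipocyte markers summed to 4.71 to 36.8. Liver RNA is a mixture, and fewer cells of a type cannot be told apart from less RNA per cell.

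No member differed between diets past the threshold, a Benjamini-Hochberg adjusted p under 0.05 over 12885 genes in limma, in any of the 3 comparisons. The background was 0% in each as well, so no other gene passed on these values either. At an unadjusted p under 0.05, 4 of 31 members stood out for 1% quercetin against control (12.9%), beside 5.55% of all tested genes. Gstt2 and Gsta4 lay above control (2 of 31, background 1.21%), and Gstm7 and Gpx6 lay below it (2 of 31, background 4.34%). For 0.05% quercetin against control, 3 of 31 did so (9.68%, background 3.06%). Gsta2, Gstt2 and Gpx5 were all above control (background 1.43%), and 0 were below (background 1.63%). For 1% against 0.05% quercetin the count was 2 of 31 (6.45%, background 5.49%), with Gstm2 and Gstm7 both below (background 3.62%) and 0 above (background 1.87%). Both comparisons with control share the same 6 control livers. In no member were the mice of a pair of diets fully separated. Of all tested genes, 0.0233% were fully separated upward and 0.132% downward at 1% against control, 0.0621% and 0.0388% at 0.05% against control, and 0.233% and 0.109% at 1% against 0.05%.

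The unadjusted counts changed when single mice were left out, which also lowers the power for every gene. No share over all tested genes is given beside the counts below, so a change in members cannot be told apart from one in all genes. For 1% against control the count was 7 without control mouse 4, 1 without control mouse 2 or 6, and 2 without control mouse 5, 0.05% mouse 6 or 1% mouse 1, 3 or 6. For 0.05% against control it was 5 without 0.05% mouse 2 or 3, 1 without control mouse 5 or 6 or 0.05% mouse 4 or 6, and 0 without control mouse 2 or 0.05% mouse 1 or 5. For 1% against 0.05% it was 6 without 0.05% mouse 2 or 3, 4 without 1% mouse 4, 0 without 0.05% mouse 4 or 6, and 1 without control mouse 1, 2, 5 or 6, 0.05% mouse 5 or 1% mouse 1, 3, 5 or 6.

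As a whole the 3 families moved little from diet to diet. The median log2 change over the 31 members was -0.04 at 1% relative to control, beside -0.06 over all tested genes, and 13 of 31 were above 0 (background 35.2%). At 0.05% relative to control the members' median was 0.02, beside -0.01, and 18 of 31 were above 0 (background 45.5%). Between the quercetin diets, 1% over 0.05%, it was -0.08, beside -0.05, and 6 of 31 were above 0 (background 37.4%). Leaving out single mice moved the median between -0.11 (without control mouse 4) and -0.02 (without control mouse 6) at 1% relative to control. At 0.05% relative to control it lay between -0.06 (without control mouse 4) and 0.11 (without 0.05% mouse 2). For 1% over 0.05% it lay between -0.17 (without 0.05% mouse 2) and -0.03 (without 0.05% mouse 4). After each array was shifted to a common median over tested genes, the members' medians became 0.01, 0.02 and -0.03, and the number above 0 became 16, 18 and 13. The scaling also decides the split of unadjusted calls over all genes. For 1% against control 21.8% of them were upward on the values as deposited, 45.4% after the median shift and 48.7% after quantile normalization, and for 1% against 0.05% the shares were 34.0%, 54.6% and 55.5%. Among members the median shift gave 4 above (background 3.87%) and 2 below (background 4.66%) for 1% against control, and 1 above (background 4.66%) and 3 below (background 3.86%) for 1% against 0.05%. Single changes close to 0 turned sign under the median shift or quantile normalization. These were Gsta3, Gstp1, Gstt1, Prdx2 and Prdx4 for 1% against control, Gsta3, Gstk1 and Gstp1 for 0.05% against control, and Gpx1, Gpx3, Gpx5, Gpx6, Gsta3, Gstm5, Gstp1 and Gstt2 for 1% against 0.05%. All other members kept their direction under both.

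Marker genes of cell types were followed beside the members. The 8 neutrophil markers on the array summed to 144 to 1313 in control livers, 156 to 265 at 0.05% and 282 to 889 at 1%. At 0.05% against control all 5 tested neutrophil markers were below 0, with a median change of -0.57 and 4 of 5 at an unadjusted p under 0.05 (background 1.63%). At 1% against 0.05% all 5 were above 0, with a median of 0.51 and 2 of 5 at that p (background 1.87%). Of 9 tested endothelial markers, 8 were above 0 at 0.05% against control (median 0.18), and 0 were above 0 at 1% against 0.05% (median -0.19). All 9 tested hepatocyte markers were below 0 at 1% against control (median -0.15) and at 0.05% against control (median -0.08). Apart from the neutrophil list, each of the other 8 marker lists had at most 1 gene at an unadjusted p under 0.05 in any comparison. The part of these cell types in the members' values was not tested.

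**Figure D1:**
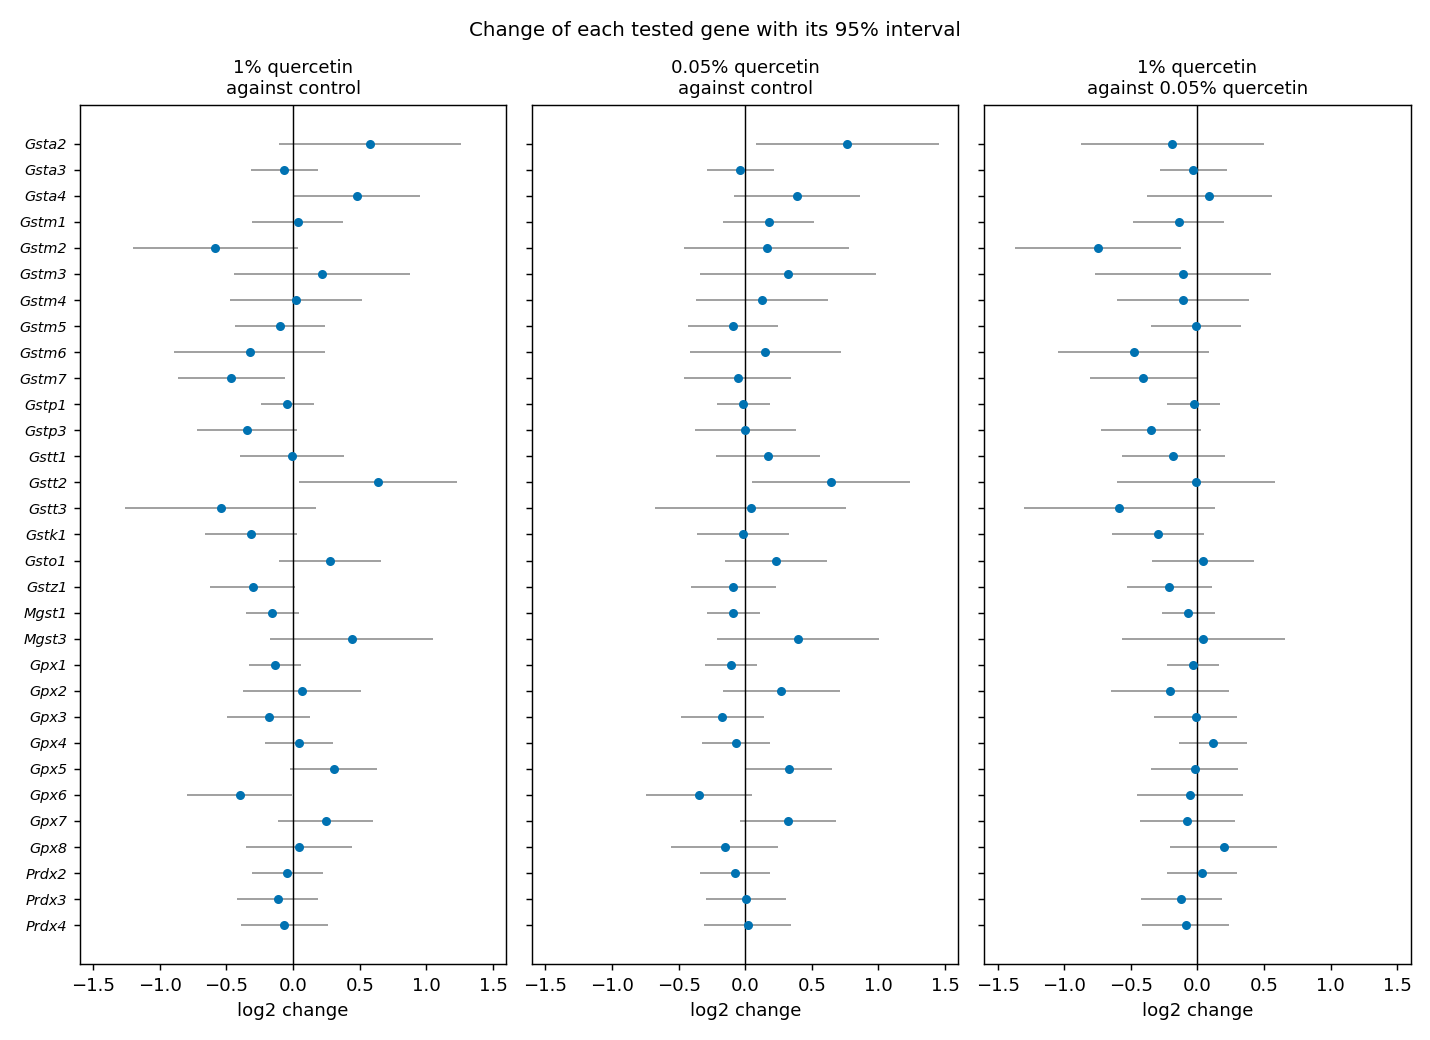
Log2 change of each of the 31 tested genes (points) with its 95% interval (lines), for 1% quercetin against control, 0.05% quercetin against control and 1% against 0.05% quercetin. Intervals clear of 0 on the left panel are those of Gstt2, Gsta4, Gstm7 and Gpx6, and none of the 31 genes passes the adjusted threshold in any panel.

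Among the alpha-class transferases, Gsta2 and Gsta4 had higher means on both quercetin diets than on the control diet, and Gsta3 did not. Gsta2 encodes an enzyme that conjugates electrophiles and also has peroxidase activity. Its lowest, median and highest values were 9.13, 9.59 and 10.55 in control livers, 9.23, 10.82 and 11.36 at 0.05%, and 9.95, 10.33 and 10.82 at 1%. The 1% livers lay within a narrow band above most controls, and the 0.05% livers were split, with 3 above every control and 2 below the control mean. The change was 0.58 for 1% against control (95% interval -0.11 to 1.26, limma adjusted p = 0.927) and 0.77 for 0.05% against control (0.08 to 1.45, adjusted p = 0.9997).

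Gsta4 encodes the transferase known for conjugating 4-hydroxynonenal, an aldehyde from oxidised lipids. Its values were 9.59, 10.08 and 10.70 in control, 9.77, 10.73 and 11.14 at 0.05%, and 10.29, 10.52 and 11.01 at 1%. All 6 livers at 1% lay above the control mean and 2 lay above every control. The change was 0.48 for 1% against control (0.01 to 0.95, adjusted p = 0.897) and 0.39 for 0.05% against control (-0.08 to 0.86, adjusted p = 0.9997). Gsta3, a bright gene whose enzyme detoxifies aflatoxin in mouse liver, averaged 12.68 ± 0.06 at 1% and 12.74 ± 0.16 in control (SD, n = 6 each). Its difference of -0.07 turned to 0.04 after quantile normalization, and both are within its interval of -0.32 to 0.19. With array weights the changes of Gsta2 and Gsta4 for 1% against control were 0.35 and 0.31.

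In the theta class, Gstt2 had higher means on both quercetin diets. Theta enzymes act on small electrophiles such as halogenated solvents and, in rat and human for Gstt2, on sulfate esters. Gstt2 values were 8.21, 8.75 and 9.32 in control, 8.24, 9.68 and 10.24 at 0.05%, and 9.05, 9.37 and 9.90 at 1%. All 6 livers at 1% exceeded the control mean and 4 exceeded every control, while at 0.05% 4 exceeded every control and the other 2 lay below the control mean. The change was 0.63, a 1.55-fold difference, for 1% against control (0.04 to 1.23, adjusted p = 0.879), and 0.65 for 0.05% against control (0.05 to 1.24, adjusted p = 0.9997). Gstt2 differed by -0.01 between 1% and 0.05% (-0.60 to 0.58). Its SDs were 0.43 in control, 0.84 at 0.05% and 0.30 at 1%. The fit takes 1 spread per gene over the 3 diets, so the wide 0.05% group also widens the interval for 1% against control. The same holds for Gsta2. Gstt3 values ran from 7.32 to 8.06 at 1%, against 7.19 to 9.43 at 0.05%, a difference of -0.58 (-1.30 to 0.13, adjusted p = 0.944) that was -0.38 without 0.05% mouse 4. Relative to control Gstt3 changed by -0.54 at 1% (-1.26 to 0.18) and by 0.04 at 0.05%. Gstt1 averaged 11.45 ± 0.33 in control, 11.62 ± 0.45 at 0.05% and 11.44 ± 0.21 at 1% (SD, n = 6 each). At 0.05% against control all 3 theta genes were thus above 0, and differences between genes of the class were not tested.

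**Figure D2:**
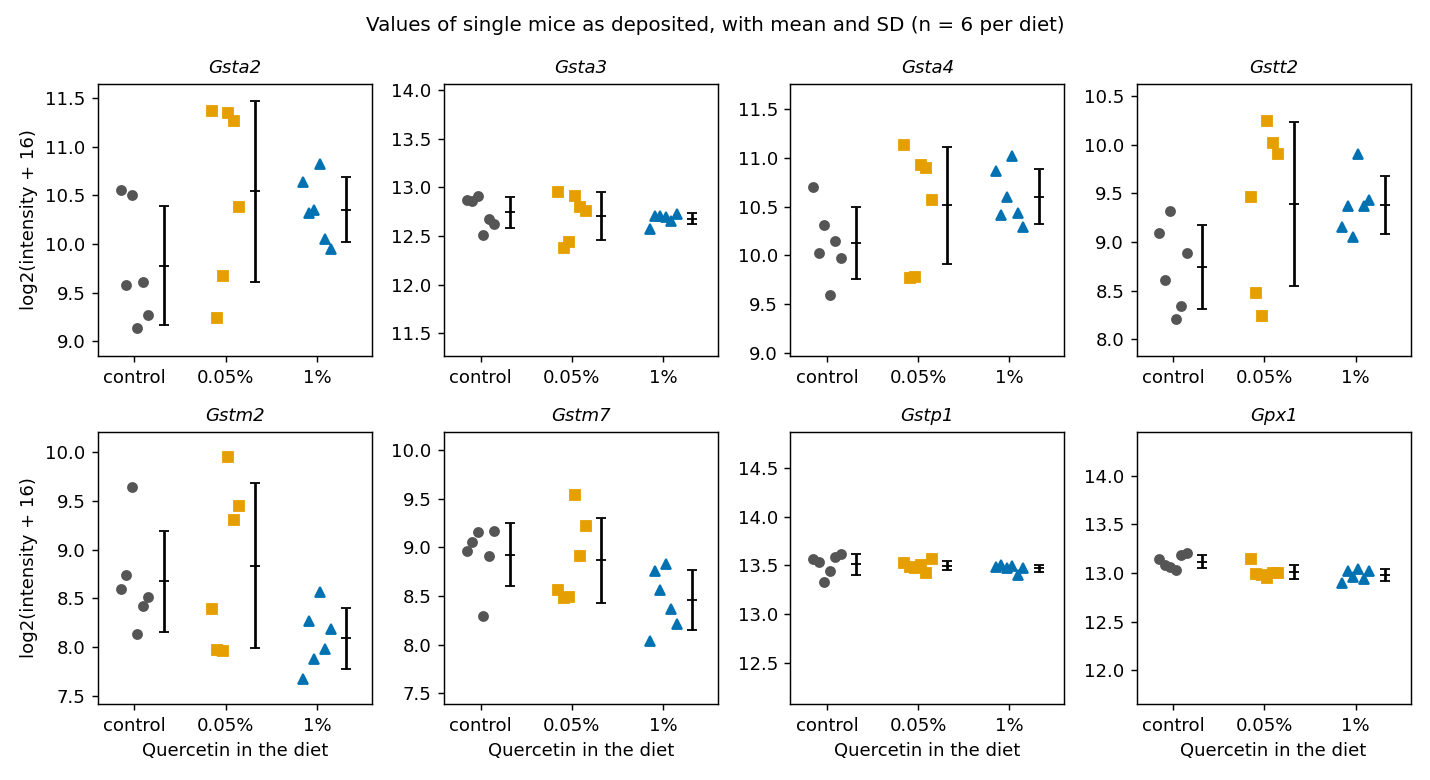
Values of single mice for 8 of the genes on the log2(intensity + 16) scale, as deposited, by quercetin content of the diet (control, 0.05%, 1%), with the mean and SD of 6 mice beside each group. All panels span the same range, so the wide scatter of Gsta2, Gstt2 and Gstm2 at 0.05% can be set beside the tight groups of Gstp1 and Gpx1.

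In the mu class, whose enzymes conjugate a wide range of electrophiles, Gstm2 and Gstm7 had lower means at 1% than on either other diet. Gstm2 values were 8.13, 8.56 and 9.64 in control, 7.95, 8.85 and 9.96 at 0.05%, and 7.67, 8.08 and 8.56 at 1%. All 6 livers at 1% lay below the means of both other diets, and 2 lay below every liver at 0.05%. The change was -0.75 for 1% against 0.05% (-1.37 to -0.13, adjusted p = 0.819) and -0.58 for 1% against control (-1.21 to 0.04, adjusted p = 0.902). The 2 highest Gstm2 values belonged to single mice, 9.96 in 0.05% mouse 4 and 9.64 in control mouse 3.

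Gstm7 values were 8.29, 9.01 and 9.17 in control, 8.48, 8.74 and 9.53 at 0.05%, and 8.04, 8.46 and 8.82 at 1%. Again all 6 livers at 1% lay below the means of both other diets. The change was -0.46 for 1% against control (-0.87 to -0.06, adjusted p = 0.864) and -0.41 for 1% against 0.05% (-0.81 to 0.00, adjusted p = 0.904). In a fit over all probe sets, a second, dimmer Gstm7 probe set gave -0.38 for 1% against control, at an unadjusted p under 0.05, and -0.31 for 1% against 0.05%, which did not reach it. Gstm6, a close relative, averaged 7.99 ± 0.23 at 1% and 8.46 ± 0.75 at 0.05% (SD, n = 6 each), a difference of -0.48 (-1.04 to 0.09) that was -0.27 without 0.05% mouse 4.

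All 7 mu genes were below 0 for 1% against 0.05% on the values as deposited, with Gstm1 at -0.14, Gstm3 and Gstm4 at -0.10 each and Gstm5 at -0.0077, of which Gstm5 turned above 0 after the median shift. Differences between genes of the class were not tested. Gstm1, a main mu-class transferase of mouse liver, averaged 12.46 ± 0.29 in control, 12.64 ± 0.38 at 0.05% and 12.50 ± 0.18 at 1% (SD, n = 6 each). For 1% against control this was a change of 0.03 (-0.31 to 0.38, adjusted p = 0.995) that turned to -0.07 without control mouse 4 and to -0.03 without 1% mouse 4. The change at 0.05% from control was 0.18 (-0.17 to 0.52), and it was 0.07 without control mouse 4, 0.11 without 0.05% mouse 1 and 0.30 without 0.05% mouse 3. Gstm1 has 4 probe sets, whose changes at 1% against control ran from -0.03 to 0.25. Gstm3, Gstm4 and Gstm5 changed by 0.21, 0.02 and -0.10 for 1% against control, with intervals that all include 0. The mu-class sequences are close to each other, and probe sets whose names end in _x_at, _s_at or _a_at may take up RNA from a related gene. Those kept for Gstm1, Gstm3 and Gstm6 have such names, so values within this class are not fully separate. The same limit applies to the probe sets kept for Gsta2, Gstp1, Gsto1, Gstz1, Mgst1, Gpx4 and Prdx2, whose names end alike.

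In the pi class, Gstp1, whose enzyme is strongly expressed in male mouse liver, averaged 13.51 ± 0.11 in control, 13.50 ± 0.05 at 0.05% and 13.47 ± 0.04 at 1% (SD, n = 6 each). Its change of -0.04 for 1% against control (-0.24 to 0.15) turned to 0.01 after the median shift and to 0.09 after quantile normalization. The change of -0.01 at 0.05% from control turned to 0.05 after quantile normalization. Gstp3 lay between 7.21 and 7.83 at 1%, against 7.37 to 8.27 in control, a change of -0.35 (-0.72 to 0.03, adjusted p = 0.908). It was also 0.35 lower at 1% than at 0.05% (difference -0.35, -0.72 to 0.03, adjusted p = 0.942).

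Of the transferases with other roles, Gstk1 of mitochondria and peroxisomes and Gstz1, which isomerises maleylacetoacetate in tyrosine breakdown, had lower means at 1%. Gstz1 lay between 10.82 and 11.23 at 1%, against 10.76 to 11.52 in control, with all 6 livers at 1% below the control mean. The change was -0.30 (-0.62 to 0.02, adjusted p = 0.902). Gstz1 changed by -0.21 for 1% against 0.05%, and by -0.12 without 0.05% mouse 4. Gstk1 changed by -0.31 for 1% against control (-0.66 to 0.03, adjusted p = 0.908) and by -0.30 for 1% against 0.05% (-0.64 to 0.05, adjusted p = 0.942). Gsto1, an omega-class enzyme that reduces dehydroascorbate, changed by 0.28 for 1% against control (-0.11 to 0.66). A second Gsto1 probe set, nearly as bright, gave 0.15. Microsomal Mgst3 changed by 0.44 for 1% against control (-0.17 to 1.05) and 0.39 for 0.05% against control (-0.21 to 1.00, adjusted p = 0.9997). The 0.05% value was 0.22 without 0.05% mouse 5 and 0.61 without 0.05% mouse 2 or 3. A second, much dimmer Mgst3 probe set gave 0.18 for 1% against control and 0.33 for 0.05% against control. Mgst1, the abundant microsomal transferase of liver, changed by -0.16 for 1% against control (-0.36 to 0.04), with 4 of the 6 livers at 1% below every control. Its size depended on scaling, since this change was -0.11 after the median shift and -0.03 after quantile normalization.

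**Figure D3:**
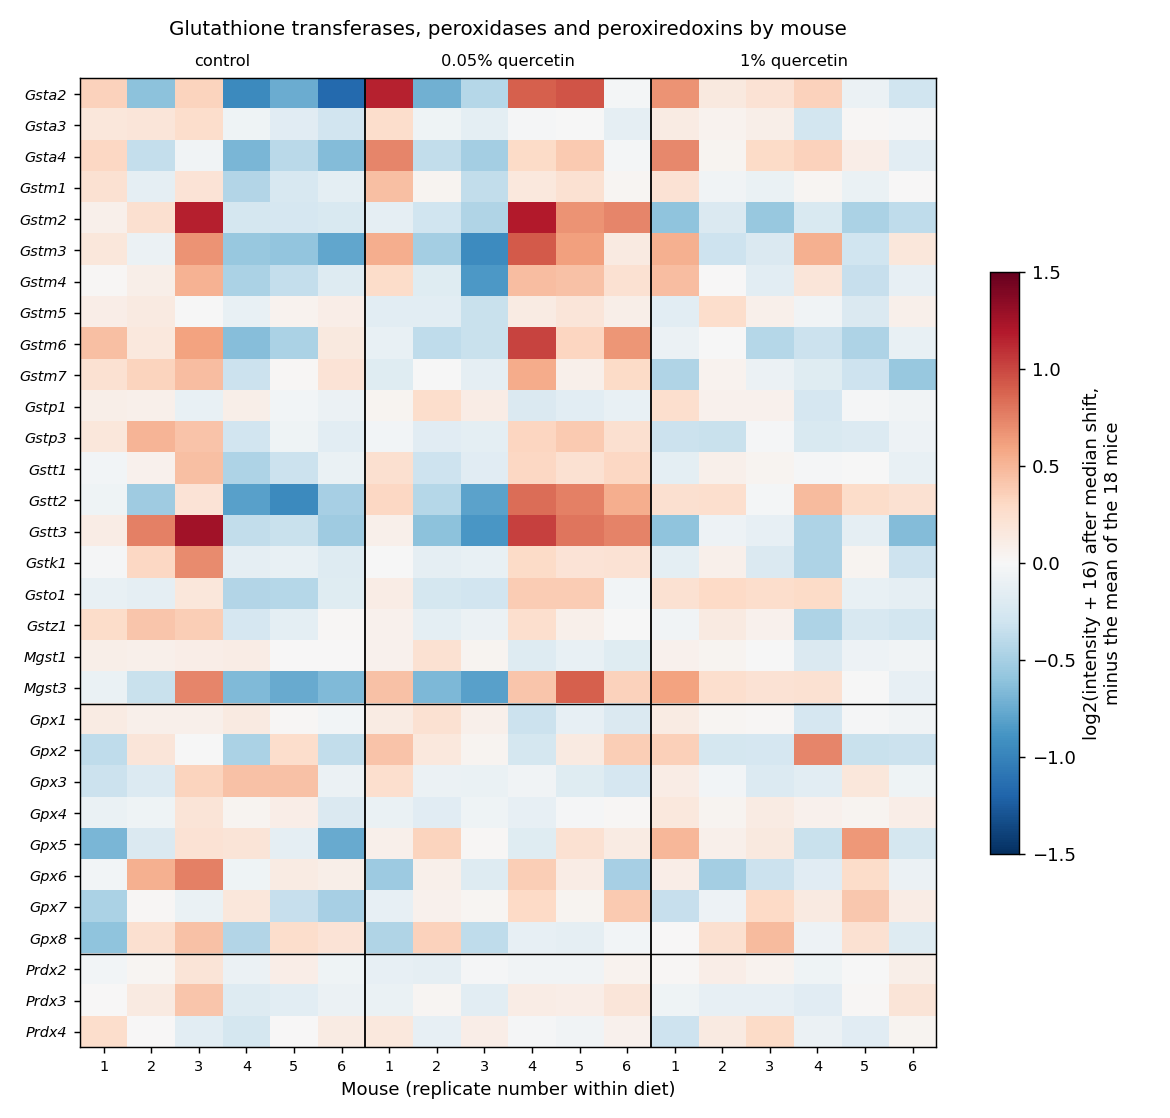
Deviation of each of the 31 tested genes (rows, by family) from its own mean over 18 mice, in log2 units after the median shift, for each mouse (columns, by diet). Transferase rows such as Gsta2, Gstm3 and Mgst3 change colour together from mouse to mouse within the control and 0.05% diets, and the rows of Gpx4 and Prdx2 stay pale.

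Gpx1 and Gpx4, both with strong signals here, are selenium-dependent peroxidases. Gpx1, the cytosolic selenoenzyme that clears hydrogen peroxide, averaged 13.12 ± 0.07 in control, 13.01 ± 0.07 at 0.05% and 12.98 ± 0.06 at 1% (SD, n = 6 each). In both comparisons with control 5 of 6 quercetin livers lay below every control liver. The change was -0.14 for 1% against control (-0.33 to 0.06, adjusted p = 0.940) and -0.11 for 0.05% against control (-0.30 to 0.09, adjusted p = 0.9997). Its size depended on scaling, since the 1% change was -0.09 after the median shift and -0.02 after quantile normalization. The limma fit pulls the variance of each gene toward that of all genes. For genes as tight as Gpx1, Gstp1 and Mgst1 it gives wider intervals and larger p-values than the spread of their own mice would. Gpx4, which reduces lipid peroxides within membranes, averaged 11.76 ± 0.14 in control, 11.69 ± 0.23 at 0.05% and 11.80 ± 0.15 at 1% (SD, n = 6 each). Its change of 0.05 for 1% against control (-0.21 to 0.30) turned to -0.01 without 1% mouse 4. The change of -0.07 for 0.05% against control (-0.33 to 0.19) turned to 0.01 without 0.05% mouse 2. A second Gpx4 probe set, nearly as bright, gave 0.15 for 1% against control and -0.03 for 0.05% against control.

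Gpx3, the peroxidase secreted into plasma, averaged 6.41 ± 0.35 in control, 6.24 ± 0.23 at 0.05% and 6.23 ± 0.15 at 1% (SD, n = 6 each). Its change was -0.18 for 1% against control (-0.49 to 0.13) and -0.17 for 0.05% against control (-0.48 to 0.14). Gpx2, Gpx5, Gpx6 and Gpx8 had means of 4.70 to 5.03 over 18 mice, near the filter at 4.69, where adding 16 compresses differences. Gpx6 values were 4.22, 4.66 and 4.98 at 1%, against 4.57, 5.06 and 5.48 in control, a change of -0.40 (-0.80 to -0.01, adjusted p = 0.897). For 0.05% against control Gpx6 changed by -0.35 (-0.74 to 0.05, adjusted p = 0.9997). Gpx5 values were 4.93, 5.10 and 5.36 at 0.05%, against 4.34, 4.91 and 5.20 in control, a change of 0.33 (0.00 to 0.65, adjusted p = 0.9997). At 1% Gpx5 changed by 0.31 from control (-0.02 to 0.63, adjusted p = 0.902). Gpx5 and Gpx6 lie next to each other on chromosome 13 and are best known from the epididymis and the olfactory epithelium, so these are values at the edge of detection. Gpx7 and Gpx2 changed by 0.32 and 0.27 for 0.05% against control, and Gpx8 by 0.20 for 1% against 0.05%, all with intervals that include 0. The Gpx2 value was 0.17 without control mouse 4, and that of Gpx8 was 0.12 without 0.05% mouse 3 and 0.13 without 0.05% mouse 1. With 1 added before log2 in place of 16, the changes for 1% against control were -0.92 for Gpx6 and 0.66 for Gpx5, and for 0.05% against control -0.84 for Gpx6, 0.72 for Gpx5 and 0.64 for Gpx2.

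Prdx2, Prdx3 and Prdx4, the cytosolic, mitochondrial and endoplasmic reticulum peroxiredoxins, had means close to each other on the 3 diets. Across the 3 comparisons their 9 changes ran from -0.12 to 0.04, and their medians per comparison were -0.07, 0.01 and -0.09. Prdx2 averaged 10.73 ± 0.15 at 1% and 10.77 ± 0.17 in control (SD, n = 6 each), with an interval of -0.30 to 0.22. Those of Prdx3 and Prdx4 at 1% against control were -0.42 to 0.19 and -0.39 to 0.26, so moderate differences in either direction are not excluded by these arrays. The probe sets of Prdx4 above the filter gave changes from -0.16 to 0.17 for 1% against control.

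Mice on the same diet differed more in some transferases than in most genes. Gstt3, Gsta2, Gstm3, Gstm2, Mgst3, Gstt2 and Gstm6 had residual SDs within diets of 0.54 to 0.70, which placed them between the 96.3rd and 98.6th percentile of tested genes. Gsta2 covered a 4.69-fold range over the 18 livers and Gstm2 a 4.88-fold range. At the other end, Gpx1, Gstp1 and Mgst1 had residual SDs of 0.066, 0.071 and 0.077, below the 0.2nd percentile of all tested genes. These 3 genes had mean signals at or above the 99.8th percentile of probe sets, and whether the brightest signals are compressed on this array was not tested. After the median shift the same 3 genes ranked between the 6.49th and 17.2nd percentile, and Prdx2 and Gpx4 fell below the 2.5th.

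**Figure D4:**
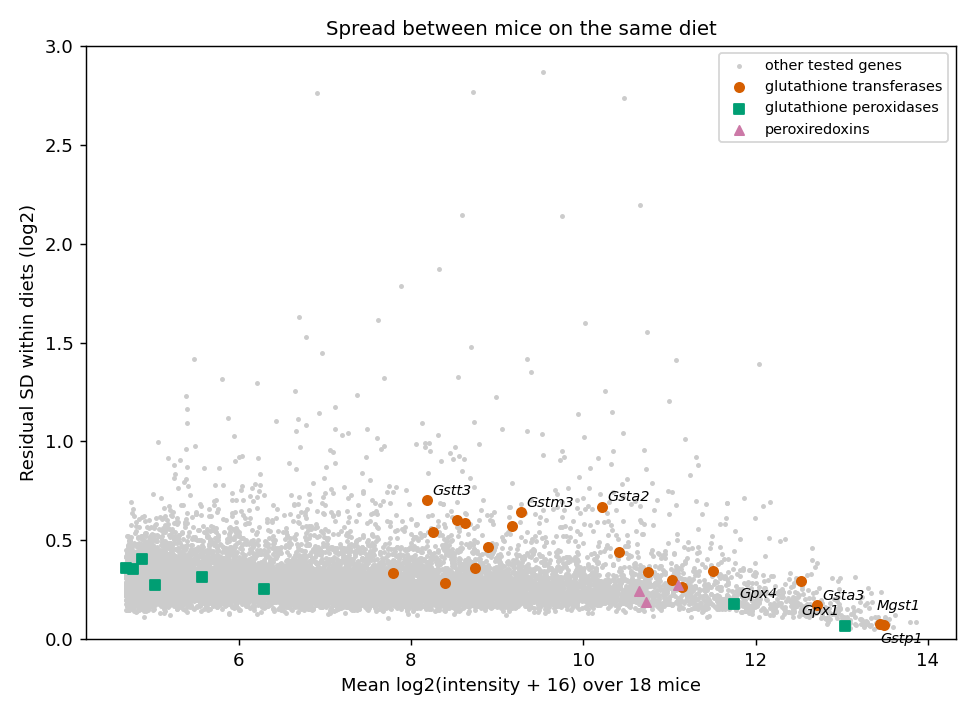
Residual SD within diets against mean log2(intensity + 16) over 18 mice, for all 12885 tested genes (grey) and for the transferases, peroxidases and peroxiredoxins. Gstt3, Gsta2 and Gstm3 lie high above most genes of their signal level, and Gpx1, Gstp1 and Mgst1 lie at the lower right.

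After the median shift, most of the 20 transferases lay on the same side of their own means in each control and 0.05% liver. At 1% the number above ran from 4 to 14 of 20, and such counts over all tested genes are not given. A mean over the 20 transferases, each gene taken as its deviation from its own mean after the median shift, ran from -0.39 to 0.42 in control livers (SD 0.316, n = 6), from -0.38 to 0.45 at 0.05% (SD 0.337, n = 6) and from -0.15 to 0.08 at 1% (SD 0.089, n = 6). On the values as deposited these SDs were 0.301, 0.510 and 0.159. Diet means were -0.06 in control, 0.10 at 0.05% and -0.04 at 1% after the median shift, as deviations from the mean over all 18 livers. Differences between these diet means were not tested. In control mouse 4, 2 of 20 transferases were above their own mean, and in control mouse 3, 17 of 20 were. At 0.05%, the count was 2 of 20 in mouse 3 and 17 of 20 in mice 4 and 5. Genes with a wide spread weigh most in the mean over transferases. After the median shift the residual SD was 0.62 for Gsta2 and 0.12 for Mgst1.

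The livers with the lowest transferase means were those with the highest acute phase expression. Acute phase proteins are made by hepatocytes in inflammation, and the 22 tested genes used for their mean were picked with these data in view. After the median shift the 7 lowest transferase means, -0.39 to -0.13, belonged to control mice 4, 5 and 6, 0.05% mice 2 and 3 and 1% mice 5 and 6. The same 7 livers had the 7 highest acute phase means, 0.13 to 1.20, against -1.05 to -0.07 in the other 11. The cut at 7 livers was likewise set with these data in view, so the full match and these ranges depend on it. Saa2, a serum amyloid A gene, is among these 22 genes, so its values are no separate agreement. It lay at 12.11 to 13.35 in these 7 livers, its 7 highest values, against 7.54 to 10.89 in the others. On the values as deposited 5 of the 7 lowest transferase means belonged to these 7 livers. Such livers occurred on every diet, 2 of 6 at 1%, 2 of 6 at 0.05% and 3 of 6 in control.

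**Figure D5:**
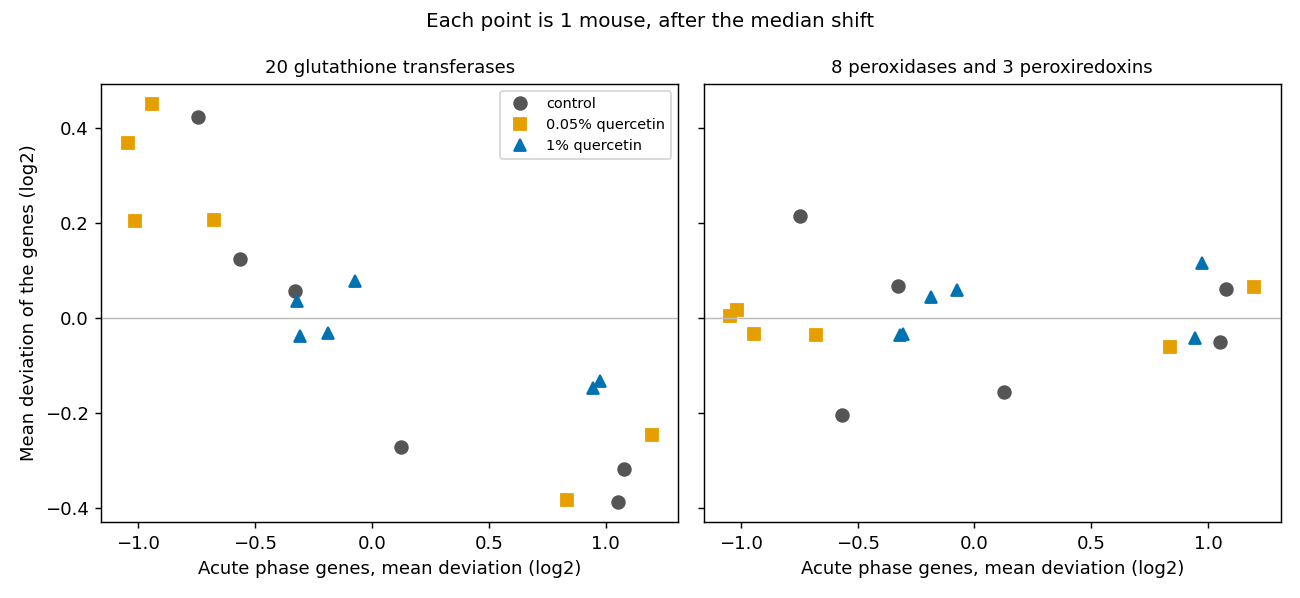
Mean deviation of the 20 tested transferases (left) and of the 8 peroxidases and 3 peroxiredoxins (right) against the mean deviation of 22 acute phase genes, in log2 units after the median shift. Each point is 1 mouse, with the diet given by marker, and the 7 rightmost points of the left panel are the 7 lowest.

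The pattern was also counted gene by gene in the transferases and in the rest of the families. For 8 of 20 transferases, Gsta2, Gsta4, Gstm3, Gstm4, Gsto1, Gstt1, Gstz1 and Mgst3, at least 6 of their 7 lowest livers were among these 7, as were those of 3.68% of all tested genes. This held for 0 of the 11 peroxidases and peroxiredoxins. The median number was 5 for transferases, 3 for the 11 others and 3 for all tested genes. These 7 livers also had the lowest means over the same 20 transferases, so higher counts for transferases are partly built in. The contrast with the 11 others and with all genes is therefore no separate support for the pattern. Gstp1 and Mgst1 had 2, in contrast to most of their family. The 5 highest neutrophil marker sums also belonged to livers among these 7, at 889 and 588 in 1% mice 6 and 5, and 1283, 1313 and 532 in control mice 4, 5 and 6. The sums were 227 and 183 in 0.05% mice 2 and 3, whose transferase means were -0.24 and -0.38. Since the acute phase mean and the transferases come from the same arrays, this is a description of 18 livers, and its part in the diet comparisons was examined only as follows.

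The acute phase mean was also used as a covariate, an alternative added after these data were seen. It goes with the transferase means of these same livers, so it can lower the residual spread of transferases more than that of most genes. A member share above the background is thus partly built into this choice. For 1% quercetin against control, 0 of 31 members passed the adjusted threshold, beside 0.0466% of all tested genes, and 12 of 31 had an unadjusted p under 0.05 (38.7%), beside 7.24% of all genes. Gstt2 (0.67), Gsta4 (0.51), Mgst3 (0.48), Gsta2 (0.62) and Gsto1 (0.30) were above control (5 of 31, background 1.79%). Gstm7, Gstz1, Gstm2, Gstp3, Gstt3, Gstk1 and Gpx6 were below it, by changes of -0.55 to -0.28 (7 of 31, background 5.45%). The smallest adjusted p of a member was 0.264, for Gstt2. With the median shift as well, the count was 9 of 31 (29%, background 10.9%), and 0 passed the adjusted threshold (background 0.0931%). The same covariate gave 2 of 31 for 0.05% against control (6.45%, background 3.1%) and 1 of 31 for 1% against 0.05% (3.23%, background 5.08%), with 0 members past the adjusted threshold in either (background 0% and 0.0233%). Some values in these comparisons moved by over 1.5 times. For 0.05% against control, Mgst3 changed by 0.15 and Gsta4 by 0.23 with the covariate, beside 0.39 for each without it. For 1% against 0.05%, Gstt3 changed by -0.28 with the covariate and -0.58 without it, Gstm6 by -0.25 and -0.48, Gstz1 by -0.09 and -0.21, Gstp3 by -0.22 and -0.35, and Gstk1 by -0.18 and -0.30.

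Genes linked to these enzymes were followed through 4 lists, and 0 of their tested genes passed the adjusted threshold in any comparison. Glutathione synthesis and recycling had 26 tested genes with a median change of -0.07 at 1% and -0.04 at 0.05% relative to control, and of -0.11 at 1% relative to 0.05%, and 0 of 26 reached an unadjusted p under 0.05 in any of them. The 2 with the smallest p for 1% against control were Glrx, a glutaredoxin (-0.27, adjusted p = 0.897), and Hagh, a glyoxalase (-0.27, adjusted p = 0.900). For 0.05% against control they were Glrx (-0.22) and Ahcy (-0.17), and for 1% against 0.05% the exporter Abcc2 (-0.48) and Cbs (-0.30).

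The list for selenoprotein synthesis and supply had 11 tested genes, only some of which the selenium-containing peroxidases need. Of these 11, 2 lay below control at 1% at an unadjusted p under 0.05 (background 4.34%). Selenbp1, a selenium-binding methanethiol oxidase, lay between 11.29 and 11.99 at 1%, against 11.82 to 12.82 in control, with all 6 livers below the control mean and a change of -0.60 (adjusted p = 0.587). Pstk, the kinase that prepares the selenocysteine transfer RNA, changed by -0.39 (adjusted p = 0.891). For 0.05% against control 0 of 11 did so, with Selenbp1 at -0.34 and Secisbp2l at 0.20, and for 1% against 0.05% 0 of 11, with Pstk at -0.37 and Sephs2 at -0.28.

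Among 9 tested genes on the thioredoxin side of peroxiredoxin recycling, 0 reached an unadjusted p under 0.05 at 1% or 0.05% against control. Txnrd1, a thioredoxin reductase, changed by 0.37 and Txnip, which binds thioredoxin, by 0.57 for 1% against control. Txnip changed by 0.50 and Sesn2 by 0.15 for 0.05% against control. For 1% against 0.05% Sesn2, a sestrin, changed by -0.39 (1 of 9 below, background 3.62%, adjusted p = 0.894) and Txnrd1 by 0.43.

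Regulators of the antioxidant response had 13 tested genes. At 1% against control Mafk (0.46, adjusted p = 0.864) and Maff (0.60, adjusted p = 0.866), small Maf partners of Nrf2, lay above at an unadjusted p under 0.05 (2 of 13, background 1.21%). At 0.05% against control Rbx1, a subunit of the ligase that degrades Nrf2, did so (0.47, 1 of 13, background 1.43%, adjusted p = 0.9997), and Bach1, a repressor of the same elements, changed by -0.41. For 1% against 0.05% the count was 3 of 13 above (background 1.87%). The 2 with the smallest p were Bach1 (0.76, adjusted p = 0.782), which lay between 9.19 and 11.02 at 1% against 8.67 to 9.45 at 0.05%, and Mafk (0.51, adjusted p = 0.806).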

How the data were processed

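Total RNA of single livers was labelled by 3′ in vitro transcription and hybridised to Affymetrix arrays, per the labels' protocols. The deposited values are array intensities, from 0.0118 to 18108, and no source used here names the authors' summarisation or scaling. Of 45101 probe sets, 64 controls were removed. Of the rest, 34945 carry 1 gene symbol in the platform annotation, 932 several and 9160 none. The brightest single-symbol probe set stood for each gene, and genes whose mean was above the 40th percentile of probe sets were tested. Intensities had 16 added, were taken to log2 and fitted in limma 3.58.1 (R 4.3.3) with 3 diet means over 18 arrays, 15 residual degrees of freedom and Benjamini-Hochberg adjustment over 12885 genes. The median SE of a difference was 0.158, and the number of arrays limits the precision. In simulated data of 12885 genes for 1% against control, 16% of changes of 0.5 log2 units and 82% of changes of 1 were recovered (50 genes per size). The simulation drew separate noise for each gene, without shared shifts of arrays, and changed many genes at once. Recovery of a single changed member in the real arrays may therefore be lower. For per-mouse family means, each array was shifted to a common median over tested genes.

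The members, lists and tests were chosen with earlier results of these data known. Named were, per comparison, the 8 members with the smallest p, preset members (Gpx1, Gpx4, Gstp1, Gstm1, Gsta2, Gsta4) in both comparisons with control, and 2 genes per pathway list. Other members were named by family or chosen after their values were seen. The acute phase list and its use as a covariate were added after the data were seen. Alternatives were quantile normalization, a median shift, dropping the filter, raising it to the 60th percentile, 1 added before log2, eBayes with trend and robust settings, weighted arrays, averaging the probe sets of a gene, a replicate block and leaving out each array. Replicate numbers did not pair the samples: 3 of 18 same-number pairs correlated over 0.1. Symbols were compared with RefSeq through Entrez IDs for 34741 probe sets, and 0 changed. Promoter windows are from RefSeq (GRCm38.p6).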

Additional observations from a re-analysis of the deposited data

Results flagged for a closer look

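In each diet of 6 mice the highest and lowest value of every tested member was set against Dixon's 95% limit, and 4 of 93 groups exceeded it, where chance alone gives about 1 in 20. The Gpx1 value of 0.05% mouse 1, 13.14, was the highest of its diet, the next being 13.00. The Gpx2 value of 1% mouse 4, 5.86, was the highest of its diet with 4.97 next, in a gene near the filter on dim probe sets. The Gstm7 value of control mouse 4, 8.29, was the lowest control, with 8.91 next, and without that mouse Gstm7 changed by -0.59 for 1% quercetin against control. The Gstp1 value of 1% mouse 5, 13.40, was the lowest of its diet with 13.47 next.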

How the results depend on the processing

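Under every alternative run, 0 of the tested members passed the adjusted threshold in each of the 3 comparisons. The number of members at an unadjusted p under 0.05 was less stable. Except where a background is given above, these counts stand without the share over all tested genes. They cannot tell a change in members apart from one in all genes. For 1% quercetin against control it was 4 as reported, 2 with 1 added before log2, 8 with array weights, 12 with the acute phase covariate and 9 with the median shift and the covariate together, and leaving out 1 array gave 1 to 7. For 0.05% quercetin against control it was 3 as reported, 0 with trend and robust settings and 6 with array weights, and leaving out 1 array gave 0 to 5. For 1% against 0.05% quercetin it was 2 as reported, 4 after the median shift, 1 without a filter, 1 with 1 added, 7 with array weights, 1 with the replicate block, 1 with the acute phase covariate and 5 with the median shift and the covariate, and leaving out 1 array gave 0 to 6. Signs turned in changes close to 0. For 1% against control, Gpx4 became -0.0076 without 1% mouse 4 (-0.0076 to 0.089 over single arrays left out). Gstp1 became 0.086 after quantile normalization, 0.0078 after the median shift and 0.0021 with the median shift and the covariate. Gstm1 became -0.070 with array weights and -0.068 without control mouse 4 (-0.068 to 0.091 over single arrays left out, and -0.028 without 1% mouse 4). For 0.05% against control, Gpx4 became 0.0060 with array weights and 0.0056 without 0.05% mouse 2 (-0.121 to 0.0056 over single arrays left out). Gstp1 became 0.049 after quantile normalization, 0.019 with the median shift and the covariate, and 0.0063 without control mouse 6 (-0.051 to 0.0063 over single arrays left out). The cause of these shifts was not tested. Replicate numbers did not pair the samples, and the replicate block moved no other count by over 1.5 times. Most simulated differences of 0.5 log2 units were missed with 6 arrays per diet, and dim genes near the filter carry little signal.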
